A study of Mus musculus with 14 samples.

Results

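The genes examined were the 4 mouse ERBB receptor genes, Egfr, Erbb2, Erbb3 and Erbb4, taken by symbol from the 55291 genes of the deposited count table. All 4 were present, and 3 of them had enough counts to be among the 17933 genes tested; Erbb4 did not. The 14 RNA libraries came from lung tumor nodules, snap frozen, of mice of the strain C57BL/6, and all had the genotype HER2 Exon20YVMA, an insertion in exon 20 of the kinase domain of HER2, the protein of Erbb2. Mice had long-term vehicle (n = 2), mobocertinib, also called TAK-788 (n = 3), T-DM1 (n = 3) or the combination (n = 3), or their nodules had acquired resistance to mobocertinib given alone (resistant, n = 3). Mobocertinib is a covalent kinase inhibitor of EGFR and HER2 with exon 20 insertions, and T-DM1 is trastuzumab, an antibody to HER2, joined to a cytotoxic microtubule inhibitor. The labels give no age, no sex, no promoter driving the allele, no species of origin of the mutant HER2 sequence, and no statement that each library came from its own mouse. The p-values below therefore measure the spread between these libraries. No row named ERBB2, the human symbol, was found in either deposited table (0 rows), so each Erbb2 value is that of the mouse gene's row. Whether, and how far, transcripts of the mutant allele count in that row is not known. Any that do cannot be told apart from endogenous ones.

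ERBB receptors are transmembrane tyrosine kinases that signal as pairs. EGFR and ERBB4 bind ligands and have active kinases, HER2 has no known ligand of its own and serves as the favored partner, and ERBB3 has a weak kinase but many docking sites for PI3-kinase, so that the pair of HER2 and ERBB3 is a strong activator of that pathway. The receptors are best known in lung for their roles in epithelial repair and in adenocarcinoma, where exon 20 insertions in EGFR or HER2 keep the kinase active.

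The reference sequences around the site of the insertion are shown because the allele of all 14 libraries is named after the residues encoded there. Each line gives 60 coding bases of the GENCODE M21 annotation (mm10 build), 5′ to 3′ along the transcript, with the 12 bases in capitals that encode the YVMA residues in Erbb2 and the aligned bases in the other receptors.
Erbb2: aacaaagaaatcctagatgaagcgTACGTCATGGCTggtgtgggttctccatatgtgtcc
Egfr: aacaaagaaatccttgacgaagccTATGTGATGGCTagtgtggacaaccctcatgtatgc
Erbb4: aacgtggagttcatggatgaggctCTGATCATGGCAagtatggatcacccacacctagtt
Erbb3: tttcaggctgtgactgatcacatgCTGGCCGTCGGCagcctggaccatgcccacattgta
The Erbb2 window lies at chr11:98433480-98433933 on the plus strand across exons 19 and 20, and its capitals at chr11:98433898-98433909 in exon 20. The Egfr window lies at chr11:16893089-16896935 on the plus strand, shares 45 of 60 bases with Erbb2 and 10 of the 12 capitals, and encodes the same YVMA residues. The Erbb4 window (chr1:68198986-68250597, minus strand) shares 33 bases with Erbb2 and 7 of the capitals, and the Erbb3 window (chr10:128572903-128573192, minus strand) shares 20 and 4. No stretch of 50 bases is shared between annotated transcripts of the 4 receptors (0 in each), so an exact match of that length names 1 receptor. Erbb2 shares 9 exon bases, 0.173% of its 5210, with its neighbor Mien1, and the other 3 share none with any gene. The genes lie on the mm10 build at chr11:16752203-16918158 (Egfr), chr11:98412470-98437716 (Erbb2), chr10:128567523-128589652 (Erbb3) and chr1:68032186-69108059 (Erbb4).

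Library totals ran from 19344015 to 31287261 counts. The vehicle pair differed from the remaining 12 libraries in the lengths of its messenger RNAs. Messenger RNAs longer than 5 kb took 6.13% and 4.51% of their counts against 12.6% to 20.1% elsewhere, and those under 1 kb took 25.7% and 30.9% against 6.79% to 11.9%. The receptors are on the long side of this split, with longest annotated transcripts of 10208 bases (Egfr), 5012 (Erbb2), 6016 (Erbb3) and 12037 (Erbb4). Receptor changes against vehicle are therefore given beside those of long genes. They are also given from a fit that adjusts each library for transcript length and GC content. Below, changes of ligands, scaffolds, Erbb2 neighbors, cell type markers and single pathway genes against vehicle are not adjusted for length.

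By TPM, which is scaled to transcript length and so allows levels of different genes to be set side by side, Erbb2 and Erbb3 were the abundant receptors of these nodules, Egfr was well below them, and Erbb4 was close to 0. In the 12 libraries that were not vehicle, Erbb2 ran from 45.0 to 134 TPM and Erbb3 from 30.6 to 109 TPM. Egfr ran from 1.54 to 8.27 TPM in those libraries, and Erbb4 from 0 to 0.08. The order Erbb2, Erbb3, Egfr, Erbb4 held in 11 of the 14 libraries. The exceptions were mobocertinib 2 (71.4 TPM of Erbb2, 79.9 of Erbb3), mobocertinib 3 (48.4 and 60.3) and combination 3 (53.8 and 71.0), where Erbb3 was above Erbb2. With CPM divided by transcript length in place of TPM, Erbb2 was above Erbb3 in those libraries too, and the order held in all 14.

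Erbb4, the receptor for neuregulins found mainly in neural and cardiac tissue, was barely detected. Its counts were 0 and 0 in vehicle, 1, 2 and 14 in mobocertinib, 4, 0 and 3 in T-DM1, 0 in each combination library, and 0, 3 and 4 in resistant nodules. A count of 0 allows up to 3 counts, which is 0.0929 to 0.223 normalized CPM (counts scaled to library size) at these depths and covers counting error only. Mobocertinib 3 held the 14 counts and every other library 4 or fewer, so no fold is given. The summed level of 6 cardiac muscle markers was also highest in mobocertinib 3, at 826 CPM, followed by T-DM1 1 (499), resistant 3 (438) and resistant 2 (379), which had 4, 4 and 3 counts of Erbb4. T-DM1 3 also had 3 counts, with a marker sum of 11.4 CPM. The sum was 16.3 to 68.0 CPM in vehicle and 5.12 to 46.8 in the combination; at most 1 of the 6 markers was at 0 in a library, and 0 of 6 passed in any treated group against vehicle. Its part in the Erbb4 counts was not tested. The combination libraries lay below all mobocertinib libraries without overlap, as in 6.7% of all genes tested, but that gap was not detectable at this depth.

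**Figure D1:**
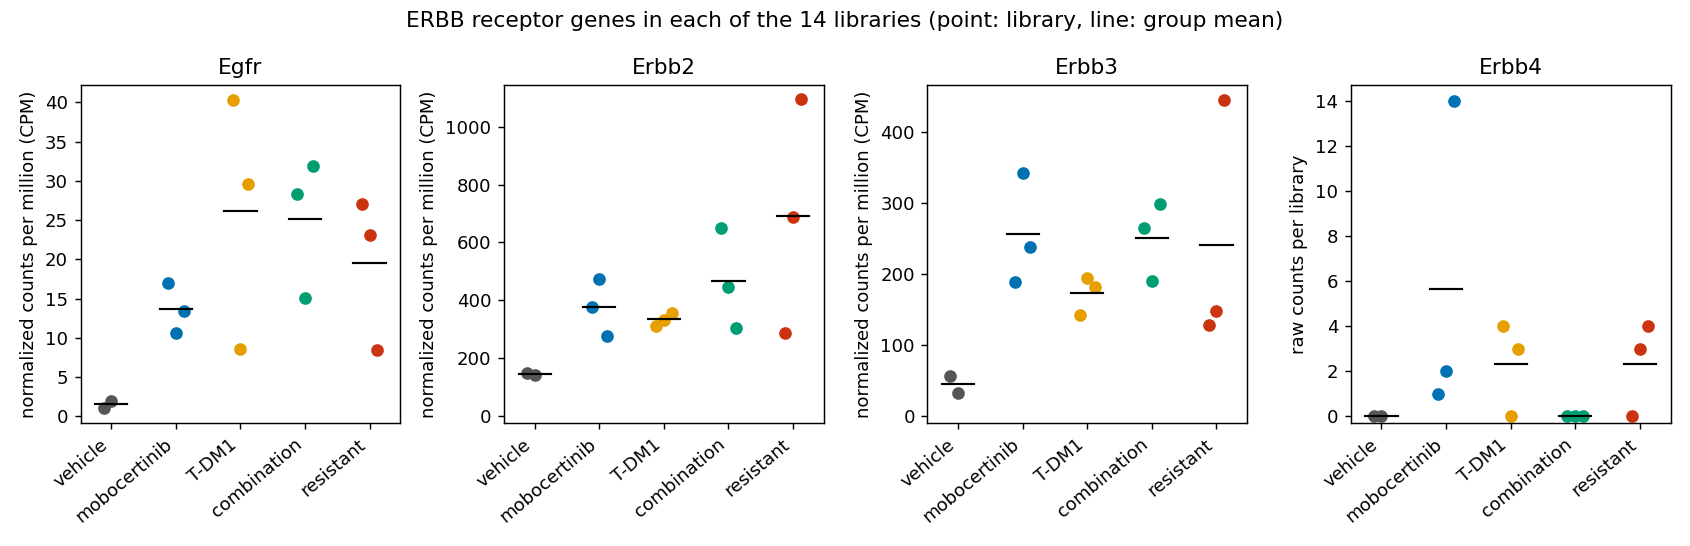
Level of the 4 ERBB receptor genes in each library (points) with group means (lines), as normalized CPM for Egfr, Erbb2 and Erbb3 and as raw counts for Erbb4; axes are linear and differ between panels. Both vehicle libraries are the lowest for Egfr (1.08 and 1.93 CPM), Erbb2 (148 and 142) and Erbb3 (57.3 and 33.0), and the resistant libraries spread the most for Erbb2 (288 to 1096).

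The comparisons with vehicle ask how receptor expression under each drug, and after resistance, differs from that of untreated nodules. All 4 comparisons share the same 2 vehicle libraries, so they are given side by side and not counted as separate support. Egfr and Erbb3 were higher than vehicle in all 4 groups, and Erbb2 in 3 of them. The largest change was that of Egfr, at 9.10- to 17.4-fold in counts, and the smallest that of Erbb2, at 2.60- to 4.77-fold where called.

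Egfr had 1.08 and 1.93 CPM in vehicle. It had 17.0, 10.6 and 13.4 CPM in mobocertinib and 40.2, 8.58 and 29.6 in T-DM1. It had 28.3, 15.1 and 31.9 CPM in the combination and 27.1, 23.1 and 8.49 in resistant nodules. No library of any drug group overlapped with vehicle, while T-DM1 2 and resistant 3 lay well below the others of their groups. The log2 fold changes against vehicle were 3.19 ± 0.71 (SE) for mobocertinib (edgeR adjusted p = 0.00504), 4.12 ± 0.74 for T-DM1 (0.00164), 4.07 ± 0.73 for the combination (0.00146) and 3.71 ± 0.72 for resistant nodules (0.00166).

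Erbb2, read from the mouse gene's row, had 148 and 142 CPM in vehicle. It had 379, 475 and 277 CPM in mobocertinib and 313, 333 and 357 in T-DM1. It had 651, 446 and 306 CPM in the combination and 288, 689 and 1096 in resistant nodules. Again no library overlapped with vehicle, but the resistant libraries differed widely among themselves. Erbb2 rose by 1.38 ± 0.48 in mobocertinib (edgeR adjusted p = 0.0411), 1.69 ± 0.48 in the combination (0.0172) and 2.25 ± 0.50 in resistant nodules (0.00347). In T-DM1 the change was 1.21 ± 0.47 (edgeR adjusted p = 0.0675), which did not pass. It did pass with DESeq2 (1.21, adjusted p = 0.0265), with no filter beyond 1 count (1.37, 0.04), with the compared groups alone (1.19, 0.0221) and in TPM. Of all genes, 39.9%, 16.2% and 22.3% were called in those count fits. In TPM most genes were called (61.1% with log2(TPM + 1), 65.8% with log2(TPM + 0.1)), and the median gene rose by 1.17 and 1.69.

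Erbb3 had 57.3 and 33.0 CPM in vehicle. It had 189, 342 and 239 CPM in mobocertinib and 143, 194 and 182 in T-DM1. It had 265, 190 and 299 CPM in the combination and 128, 149 and 446 in resistant nodules. Here too every drug-group library was above both vehicle libraries, with resistant 3 far above the other resistant libraries. Erbb3 rose by 2.51 ± 0.53 in mobocertinib (edgeR adjusted p = 0.00396), 1.94 ± 0.52 in T-DM1 (0.0137), 2.48 ± 0.53 in the combination (0.00389) and 2.42 ± 0.53 in resistant nodules (0.00339).

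Against the background of each comparison, 3 of 3 tested receptors were higher in mobocertinib where 16.8% of all genes tested were (32.9% in either direction), and 2 of 3 in T-DM1 where 16.7% were (31.7%). The counts were 3 of 3 in the combination against 17.6% of all genes (35% in either direction), and 3 of 3 in resistant nodules against 22% (41%). None was lower. Libraries that do not overlap with vehicle were common, at 59.4%, 58.2%, 63.1% and 54.4% of genes in mobocertinib, T-DM1, the combination and resistant nodules, so such separation from vehicle was shared by most genes tested. Long genes were also higher as a class. Of the 3367 tested genes with transcripts over 5 kb, 40.2%, 38.5%, 41.4% and 53.7% were called higher in the same order, with median log2 fold changes of 0.99, 1.02, 0.999 and 1.35, against 0.09, 0.18, 0.08 and 0.18 over all genes.

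With the length and GC adjustment, each receptor's change was smaller, and that of Erbb2 lost most of its calls. Egfr stayed called in all 4 groups, at 2.11 (edgeR adjusted p = 0.0382) in mobocertinib, 2.99 (0.0108) in T-DM1, 2.90 (0.0104) in the combination and 2.11 (0.0318) in resistant nodules. Erbb3 stayed called at 1.61 (0.0288), 1.56 (0.0314) and 1.34 (0.0485) in mobocertinib, the combination and resistant nodules, and was 1.08 (0.109) in T-DM1. Erbb2 was 0.66 (0.308) in mobocertinib, 0.50 (0.439) in T-DM1 and 0.89 (0.17) in the combination, and kept its call only in resistant nodules, at 1.57 (0.0273). Of all genes, this fit called 25.3%, 24%, 26.4% and 31.5% in either direction in mobocertinib, T-DM1, the combination and resistant nodules.

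The TPM table gave another order of the receptors. Its values were lower in vehicle for most genes, so the median of all genes rose by 1.62 to 1.77 on the log2(TPM + 0.1) scale against vehicle, and receptor changes are read against that shift. Relative to the median of all genes, Erbb3 was 2.55, 1.95, 2.55 and 2.24 higher in mobocertinib, T-DM1, the combination and resistant nodules. Erbb2 was 1.47, 1.22, 1.68 and 1.59 higher. Egfr was 0.47, 1.04, 1.36 and 0.63 higher, so the receptor with the largest change in counts had the smallest in TPM. Egfr rested on 18 and 26 counts in the vehicle libraries, with deposited TPM values of 0.19 and 1.49, so those libraries lay farther apart in TPM than in CPM.

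**Figure D2:**
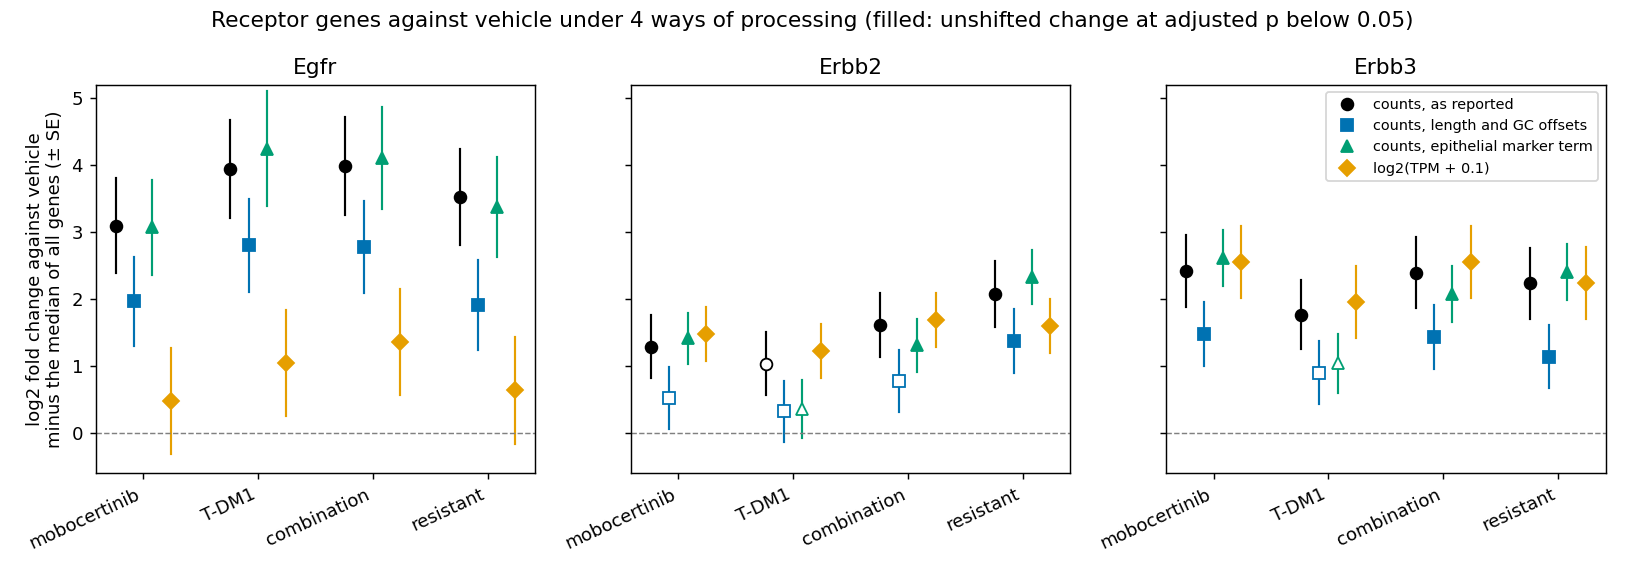
Log2 fold change against vehicle minus the median of all genes in the same fit (± SE) for 3 receptors in the 4 other groups, from counts as reported, counts with length and GC offsets, counts with an epithelial marker term, and log2(TPM + 0.1). Erbb2 loses its fill, and so its call before the median is subtracted, under the offsets in mobocertinib and the combination, and Egfr falls from the highest receptor in counts to the lowest in TPM.

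Some of these calls were lost when 1 library was left out. For Erbb2 in mobocertinib, the adjusted p was 0.113 when vehicle 1 was left out, 0.139 for vehicle 2, 0.0713 for mobocertinib 1 and 0.0842 for mobocertinib 2. For Erbb2 in the combination it was 0.0654 for vehicle 1, 0.0807 for vehicle 2 and 0.0604 for combination 1. The Erbb3 call in T-DM1 was lost without vehicle 2 (0.11). Egfr in mobocertinib was 3.18 with limma-voom (adjusted p = 0.0778) and 1.14 with log2(TPM + 1) (limma adjusted p = 0.0953), 0.033 above the median of all genes, and passed in neither.

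Receptors are expressed in several cell types of a nodule, so cell type markers were read beside them. In bulk RNA, fewer cells of a type and less RNA per cell cannot be told apart. The summed level of 8 epithelial markers was 4657 and 4701 CPM in vehicle, 2055 to 5114 in mobocertinib, 6306 to 8656 in T-DM1, 4398 to 5905 in the combination and 1747 to 5710 in resistant nodules, with none of the 8 at 0 in any library. Of these 8 markers, 1, 2, 1 and 2 were called higher against vehicle and 0 lower. Beside these and the marker calls below, 16.8%, 16.7%, 17.6% and 22% of all genes were higher, and 16.1%, 14.9%, 17.4% and 19% lower. With the epithelial level as a term in the fit, Erbb3 in T-DM1 was 1.28 (edgeR adjusted p = 0.0515) and no longer passed, and Erbb2 in T-DM1 was 0.60. Erbb2 stayed called in mobocertinib at 1.48 (0.0116), in the combination at 1.42 (0.0158) and in resistant nodules at 2.41 (0.000815). Of 7 endothelial markers 5 were higher against vehicle in each of the 4 groups and 1 was lower in resistant nodules, from 279 and 376 summed CPM in vehicle to 503 or more elsewhere. Of 7 macrophage markers 2 or 3 were lower in each, from 31056 and 32312 summed CPM in vehicle to 15908 or less. Their mean log2 CPM was 7.92 and 8.45 in vehicle and reached 7.88 in T-DM1 2. In resistant nodules 4 of 5 smooth muscle markers and 3 of 6 fibroblast markers were higher, with summed fibroblast levels of 340.1 to 3521 CPM against 276 and 278 in vehicle. The 8 markers of alveolar type 2 cells, the lung's surfactant cells, were present in every group, with 1 of 8 lower against vehicle. Their sum went from 143138 and 211893 CPM in vehicle to 80217 or less. Such sums weigh abundant markers most. The mean log2 CPM of the 8 was 11.87 and 11.73 in vehicle, 11.86 in T-DM1 2 and 11.70 in resistant 2. It was 8.92 to 11.1 in the remaining libraries. Schwann cell markers, of a cell type rich in Erbb3, were near 0, at 1.97 to 6.53 summed CPM over 5 markers with up to 3 of them at 0. The part of endothelial cells, macrophages, stromal cells and alveolar type 2 cells in the receptor changes was not tested.

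The comparisons among drug groups ask whether receptor levels differ between the drugs and their combination. No receptor was called in T-DM1 against mobocertinib, the combination against mobocertinib or the combination against T-DM1, where 0.0279% (0.0223% higher), 0% and 0% of all genes were called by edgeR. At an unadjusted p under 0.05 the receptor count was also 0 in each, and DESeq2 and limma-voom called 0. The 95% intervals of the differences still include sizable changes in both directions for most receptors. T-DM1 against mobocertinib was 0.94 (−0.22 to 2.09) for Egfr, −0.17 (−1.05 to 0.71) for Erbb2 and −0.57 (−1.50 to 0.36) for Erbb3. The combination against mobocertinib was 0.88 (−0.27 to 2.03) for Egfr, 0.31 (−0.57 to 1.19) for Erbb2 and −0.03 (−0.96 to 0.90) for Erbb3. The combination against T-DM1 was −0.06 (−1.20 to 1.09) for Egfr, 0.48 (−0.40 to 1.36) for Erbb2 and 0.54 (−0.39 to 1.47) for Erbb3. In order of mean CPM, Egfr was highest in T-DM1 (26.1 ± 16.1, SD, n = 3), then the combination (25.1 ± 8.88), resistant nodules (19.6 ± 9.80) and mobocertinib (13.7 ± 3.25), and no neighbors in that order differed beyond their spread.

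**Figure D3:**
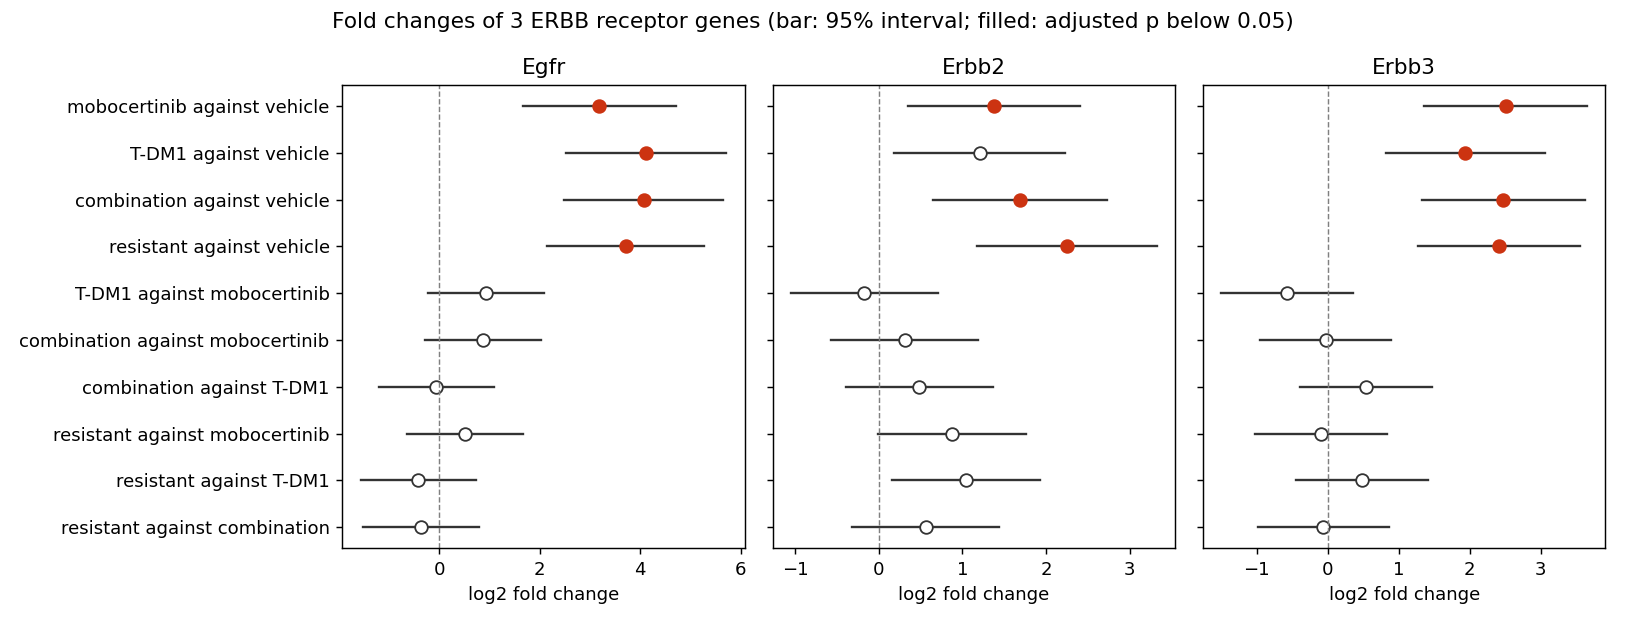
Log2 fold change of Egfr, Erbb2 and Erbb3 in each of 10 pairs of groups with its 95% interval from edgeR; the x axes differ between panels, and filled points passed an adjusted p of 0.05. All filled points are comparisons with vehicle, and in the 6 pairs without vehicle only the interval of Erbb2 in resistant against T-DM1 leaves out 0 before adjustment (0.16 to 1.93).

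Resistant nodules against each drug group ask whether receptor levels changed with resistance. Erbb2 had its highest mean in resistant nodules, 691 ± 404 CPM (SD, n = 3), against 377 ± 99.1 in mobocertinib, 334 ± 22.0 in T-DM1 and 468 ± 174 in the combination. The difference did not pass in any of the 3 comparisons, where 0.00558%, 0% and 0.00558% of all genes were called against mobocertinib, T-DM1 and the combination. Erbb2 was 0.87 ± 0.41 higher than in mobocertinib (95% interval −0.01 to 1.76, edgeR adjusted p = 0.622), 1.05 ± 0.41 than in T-DM1 (0.16 to 1.93, edgeR adjusted p = 0.315) and 0.56 ± 0.41 than in the combination (−0.32 to 1.44, edgeR adjusted p = 0.634). Over the 6 pairs without vehicle and 3 receptors, 1 of 18 edgeR tests had an unadjusted p under 0.05, that of Erbb2 in resistant against T-DM1 (edgeR unadjusted value 0.0241), and edgeR, DESeq2 and limma-voom each called 0.

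The resistant mean of Erbb2 rested on 2 of 3 libraries. Resistant 1, at 288 CPM, lay within the range of the mobocertinib libraries (277 to 475), while resistant 2 (689) and resistant 3 (1096) lay above all of them, and 0 of the 4 receptors separated these groups without overlap, against 10.1% of all genes. Without resistant 3, the difference from mobocertinib was 0.38, and without resistant 1 it was 1.23. Erbb3 did not follow in resistant 2, where it had 149 CPM, below every mobocertinib library. The ratio of Erbb2 to Erbb3 counts was 4.64 in resistant 2, 2.25 in resistant 1 and 2.46 in resistant 3, against 1.16, 1.39 and 2.0 in mobocertinib. Such values were not limited to resistant nodules: the ratio was 2.58 and 4.31 in vehicle, 2.19, 1.71 and 1.97 in T-DM1, and 2.46, 2.35 and 1.02 in the combination. In TPM the ratio was 1.54 in resistant 2 and 1.58 in combination 2. Egfr against mobocertinib was 0.52 ± 0.53 and Erbb3 was −0.09 ± 0.43, and without resistant 3 Erbb3 was −0.89.

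The 2 deposited tables differed on Erbb2 in resistant 2. Its TPM there was 51.8, in the middle of the 12 libraries, although its CPM was second of all 14. The ratio of library CPM to TPM for Erbb2 was 6.41 to 8.21 in the other 11 libraries outside vehicle and 14.1 in resistant 2. After division by the median ratio of all genes in the library and by the gene's own usual ratio, resistant 2 was 1.95-fold above. In that library 52 of 10807 genes (0.481%) deviated upward by as much or more. Resistant 3 was 1.28-fold above (96 genes, 0.888%) and combination 1 was 1.16-fold above (202 genes, 1.87%), so the 3 libraries with the highest Erbb2 CPM all had counts ahead of TPM. Erbb3 stayed between 0.988- and 1.02-fold in the same 12 libraries. In TPM, resistant nodules had 77.4 ± 49.2 of Erbb2 (SD, n = 3) against 57.3 ± 12.4 in mobocertinib, and the difference was 0.28 on the log2(TPM + 1) scale. The tables list different numbers of genes, 55291 in counts and 47606 in TPM, and the part of this in the gap was not tested.

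**Figure D4:**
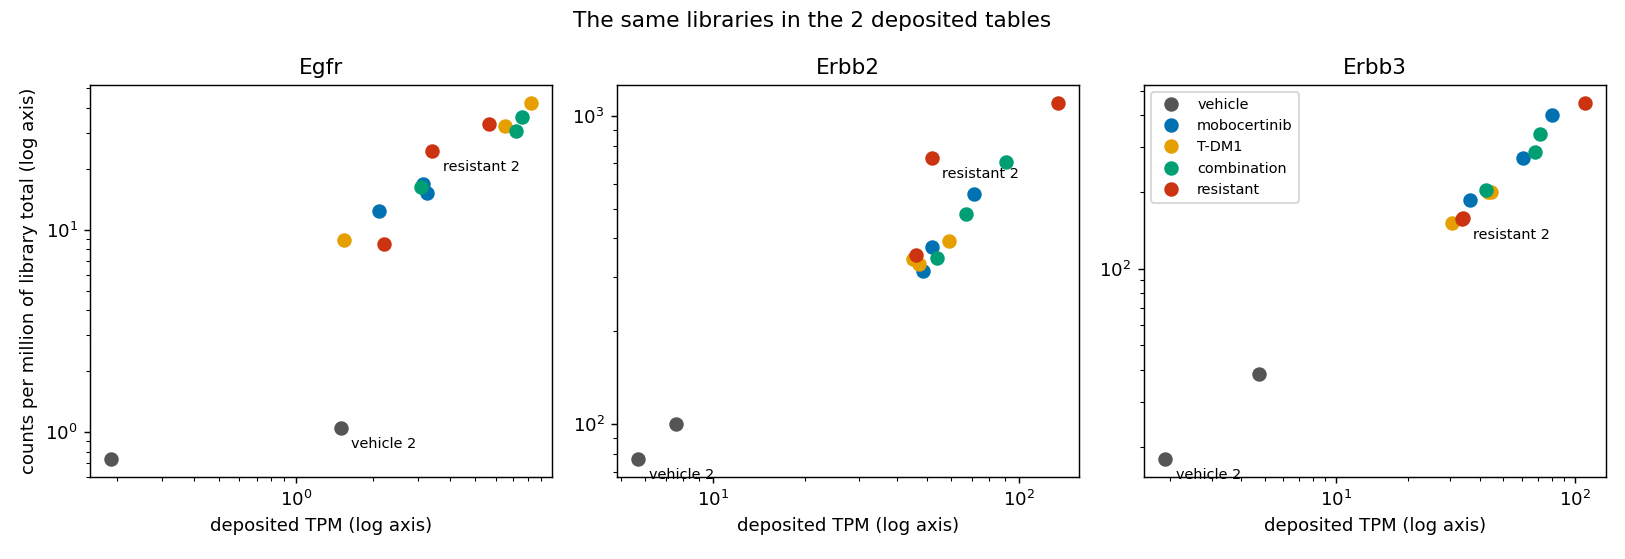
CPM of the unnormalized library total against deposited TPM for 3 receptors, 1 point per library, on log axes. For Erbb2, resistant 2 (14.1 CPM per TPM) and both vehicle libraries (13.2 and 13.5) lie above the line of the other 11 libraries (6.41 to 8.21), resistant 2 lies on the line for Erbb3, and vehicle 2 lies to the right for Egfr (0.70 CPM per TPM).

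Egfr deviated in other libraries. Both vehicle libraries, the baseline of its changes, were below the usual ratio. Vehicle 1 was at 0.475-fold of it, with 10695 of 10807 genes at or above. In vehicle 2 its CPM was 0.70 of its TPM, 0.0781-fold of the usual ratio, and 10795 of 10807 genes had a value at or above it there. In resistant 2 it was 1.51-fold above. Erbb2 counts were also high for its length throughout, with CPM per kb at 1.48 of TPM in the median library outside vehicle, against 0.774 for Erbb3, 0.509 for Egfr and 0.672 for the median gene.

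Of 7 tested neighbors of Erbb2 within 100 kb, 1 rose in mobocertinib and 1 fell, and in resistant nodules 0 rose and 2 fell. Among all genes tested, 16.8% rose and 16.1% fell in mobocertinib, and 22% rose and 19% fell in resistant nodules. Grb7, an adaptor gene next to Erbb2, was 1.11 ± 0.47 in mobocertinib (edgeR adjusted p = 0.0839) and 0.84 ± 0.46 in resistant nodules (0.16) against vehicle. Pgap3 was 0.63 and 0.28. Stard3 was −0.31 in mobocertinib and fell by 0.87 in resistant nodules (0.0461). Mien1, which overlaps the end of Erbb2, fell by 2.48 in mobocertinib and by 3.29 in resistant nodules, and Ppp1r1b rose by 1.80 in mobocertinib (0.00305). In resistant against mobocertinib, where Erbb2 was 0.87, Grb7 was −0.27, Pgap3 was −0.35 and Stard3 was −0.56, and none of the 7 passed.

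A last contrast sets the combination's change from vehicle against the summed changes of both single drugs. Egfr differed from that sum by −3.24 ± 0.86 (edgeR adjusted p = 0.03), as 1 of 3 receptors where 6.41% of all genes were called lower and 5.82% higher (12.2% in all). Its change against vehicle was 4.07 in the combination, 3.19 in mobocertinib and 4.12 in T-DM1. Erbb2 was −0.89 ± 0.61 (edgeR adjusted p = 0.347) and Erbb3 −1.97 ± 0.66 (0.0678), and neither passed. In log2(TPM + 0.1), Erbb2 (−2.62, limma adjusted p = 0.00261) and Erbb3 (−3.57, 0.00226) passed and Egfr did not (−1.76, 0.184), where the median of all genes was −1.59. Erbb3 also passed with DESeq2 (−1.99, adjusted p = 0.0191). Genes with transcripts over 5 kb had a median of −0.998 in this contrast, against −0.17 for all genes. The Egfr call was lost with the length and GC adjustment (−2.19, edgeR adjusted p = 0.131), with limma-voom (0.179), with log2(TPM + 1) (−0.91, 0.331), and without vehicle 1 (0.0786), vehicle 2 (0.0848), mobocertinib 1 (0.0513), mobocertinib 3 (0.0544), T-DM1 1 (0.0586), T-DM1 3 (0.0673) or combination 2 (0.0724), each left out alone.

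Receptor levels were then compared with each other over the 12 libraries outside vehicle. No pair passed. Pearson's r of log2 CPM was 0.51 for Erbb2 with Erbb3 (rho 0.34), −0.52 for Egfr with Erbb3 (rho −0.50) and −0.33 for Egfr with Erbb2 (rho −0.34). The permutation p-values of r were 0.0921, 0.0817 and 0.293, or 0.276, 0.276 and 0.587 after adjustment over 6 pairs, and those of rho were 0.277, 0.0982 and 0.289. Without the 2 libraries farthest from the median, r was 0.44, −0.44 and −0.13. After subtraction of group means, r was 0.63, −0.57 and −0.45, and without the 2 farthest libraries it was 0.035, −0.27 and −0.32. Resistant 3 held the highest Erbb2 and Erbb3 and the lowest Egfr of the 12. Between log2(TPM + 1) values, Erbb2 with Erbb3 passed for r (0.77, adjusted permutation p = 0.0188) but not for rho (0.69, adjusted permutation p = 0.104), and r fell to 0.50 without the 2 farthest libraries.

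The genes whose log2 CPM over all 14 libraries was most like a receptor's are given as a description, since all share the low vehicle libraries. For Erbb3 they were Gak, a kinase of clathrin uncoating (r = 0.97), Kmt2b (0.97), Lmo7 (0.97), Zfyve1 (0.96) and Akap1 (0.96). For Egfr they were Nr2f2 (0.97), Cpd (0.95), Gli3 (0.95), Arhgef10 (0.95) and Cdc14a (0.94). For Erbb2 they were Clmn (0.93), Mob3b (0.93), Klhdc7a (0.91), Aifm1 (0.91) and Npepps (0.90). Over the 12 libraries outside vehicle, the first of each list stayed at 0.93 (Gak), 0.88 (Nr2f2) and 0.88 (Clmn). Nr2f2, a nuclear receptor of mesenchymal and endothelial cells, had 8.80 ± 2.26 CPM in vehicle and 30.7 ± 4.08 in mobocertinib (SD, n = 2 and 3).

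Ligands of the receptors moved in both directions against vehicle. Of 11 ligand genes 10 were tested, and Nrg3 had 0 counts in all libraries. In mobocertinib 3 rose and 2 fell (median −1.57), and in T-DM1 3 rose and 0 fell (0.89). In the combination 3 rose and 1 fell (−0.57), and in resistant nodules 3 rose and 2 fell (−0.54). Among all genes, 16.8%, 16.7%, 17.6% and 22% rose in the same order, and 16.1%, 14.9%, 17.4% and 19% fell. Nrg1, the neuregulin that binds ERBB3 and ERBB4, had 0.269 ± 0.0404 CPM in vehicle (SD, n = 2) and 9.91 ± 3.71, 12.9 ± 7.74, 14.9 ± 1.73 and 9.11 ± 6.64 in mobocertinib, T-DM1, the combination and resistant nodules (n = 3 each). It rose by 5.19 ± 0.88, 5.56 ± 0.89, 5.77 ± 0.90 and 5.06 ± 0.88, with the largest adjusted p of the 4 at 0.00117. Vehicle held Nrg1 just above the level of 3 counts, and 4.66% of its exon bases are shared with another gene. Tgfa, a ligand of EGFR, rose by 1.83 ± 0.51 in T-DM1 (edgeR adjusted p = 0.0165), 1.83 ± 0.51 in the combination (0.0151) and 1.79 ± 0.51 in resistant nodules (0.0138).

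Areg, the EGFR ligand amphiregulin, was lower under mobocertinib. It had 136 ± 52.3 CPM in vehicle (SD, n = 2), 22.6 ± 11.5 in mobocertinib, 197 ± 25.1 in T-DM1, 43.1 ± 7.38 in the combination and 50.7 ± 52.6 in resistant nodules (n = 3 each). It fell by 2.59 ± 0.67 in mobocertinib against vehicle (edgeR adjusted p = 0.0116). The combination against T-DM1 was −2.19 ± 0.63 (edgeR adjusted p = 0.76), which did not pass; the libraries of those groups did not overlap, as in 16.2% of all genes. Hbegf, a further EGFR ligand, fell by 1.63 ± 0.48 in mobocertinib (0.0215). Ereg was 3.21 ± 0.65 in T-DM1 against mobocertinib (edgeR adjusted p = 0.157). Nrg4, a ligand of ERBB4, fell by 2.79 ± 0.76 in resistant nodules (0.0112).

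Negative regulators of the receptors that passed were all higher than in vehicle. Of 11 tested, 7, 5, 6 and 7 rose in mobocertinib, T-DM1, the combination and resistant nodules and 0 fell, with medians of 1.13, 1.0, 1.25 and 1.62. Of all genes 16.8%, 16.7%, 17.6% and 22% were higher in these comparisons, and of genes over 5 kb 40.2%, 38.5%, 41.4% and 53.7%. With the length and GC adjustment the calls in this list were 5, 3, 5 and 6, where 25.3%, 24%, 26.4% and 31.5% of all genes were called in either direction. Cblb, a ubiquitin ligase of the family that marks active receptors for breakdown, rose by 2.53 ± 0.32 in mobocertinib (edgeR adjusted p = 0.000314) and by 2.95 ± 0.33 in resistant nodules (6.54e-05). Lrig1, a membrane protein that promotes loss of ERBB receptors, rose by 2.37 ± 0.42 in mobocertinib (0.00143) and 2.80 ± 0.43 in the combination (0.000554). Nedd4, another ubiquitin ligase, rose by 1.98 ± 0.31 in mobocertinib and 2.14 ± 0.31 in T-DM1 (0.000707 and 0.00049). Errfi1, the inhibitor of active EGFR and HER2 kinases, was 1.36 ± 0.42 in resistant nodules against the combination (edgeR adjusted p = 0.596).

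Adaptors, scaffolds and other receptor kinases also had calls in 1 direction, higher. The shares of all genes called higher were 16.8%, 16.7%, 17.6% and 22% in mobocertinib, T-DM1, the combination and resistant nodules. Those of genes over 5 kb were 40.2%, 38.5%, 41.4% and 53.7%. Of 14 adaptors and proximal enzymes, 7, 5, 8 and 9 rose against vehicle in the order above and 0 fell, with medians of 0.89, 0.75, 0.91 and 0.91. Ptpn11, the phosphatase SHP2, rose by 2.24 ± 0.31 in mobocertinib (edgeR adjusted p = 0.000438), and Gab2, a docking protein for it, by 2.27 ± 0.43 (0.00222). Of 8 chaperones, sheddases and scaffolds, 2, 3, 2 and 3 rose and 0 fell. Erbin, a scaffold that binds HER2, rose by 2.22 ± 0.33 in mobocertinib (0.000595) and by 2.80 ± 0.34 in resistant nodules (9.86e-05). Of 16 other receptor tyrosine kinases, 8, 9, 9 and 11 rose and 0 fell, with medians of 1.16, 1.54, 1.22 and 1.78. Igf1r rose by 2.84 ± 0.55 in mobocertinib (0.00233) and Insr by 2.05 ± 0.28 (0.000405). With the length and GC adjustment the calls among the 16 kinases dropped to 3, 2, 4 and 4, and those among the adaptors to 4, 3, 3 and 5. That fit called 25.3%, 24%, 26.4% and 31.5% of all genes in either direction, so few list calls stood out from that share.

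Genes that report ERK signaling, the pathway below the receptors, moved in 1 direction under mobocertinib where they passed. Of 14 such genes, 6 fell and 0 rose in mobocertinib (median −1.11), and 0 fell and 3 rose in T-DM1 (−0.21). In the combination 5 fell and 2 rose (−0.95), and in resistant nodules 3 fell and 1 rose (0.01). Among all genes, 16.1%, 14.9%, 17.4% and 19% fell in the same order, and 16.8%, 16.7%, 17.6% and 22% rose. With the length and GC adjustment the calls among the 14, in either direction, were 6, 4, 7 and 4. The shares of all genes called in that fit were 25.3%, 24%, 26.4% and 31.5%. Dusp6, an ERK phosphatase induced by ERK, had 225 ± 10.8 CPM in vehicle (SD, n = 2), 38.5 ± 7.47 in mobocertinib, 161 ± 19.3 in T-DM1, 48.1 ± 6.54 in the combination and 65.8 ± 21.1 in resistant nodules (n = 3 each). It fell by 2.54 ± 0.27 in mobocertinib (edgeR adjusted p = 0.000261) and was higher by 2.06 ± 0.25 in T-DM1 than in mobocertinib (0.0242). Etv4, a transcription factor gene induced by ERK, fell by 4.4 ± 0.71 in mobocertinib (0.000906). Dusp6 and Dusp5 were the 2 pathway genes called in the 6 pairs without vehicle, out of 438 tests, of which 81 had an unadjusted p under 0.05; DESeq2 called 23 and limma-voom 2. Dusp5 shares 22.1% of its exon bases with another gene, so its value is uncertain. In T-DM1 against mobocertinib, where Dusp6 differed, the changes of Egfr, Erbb2 and Erbb3 were 0.94 ± 0.53, −0.17 ± 0.41 and −0.57 ± 0.43, and none passed.

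**Figure D5:**
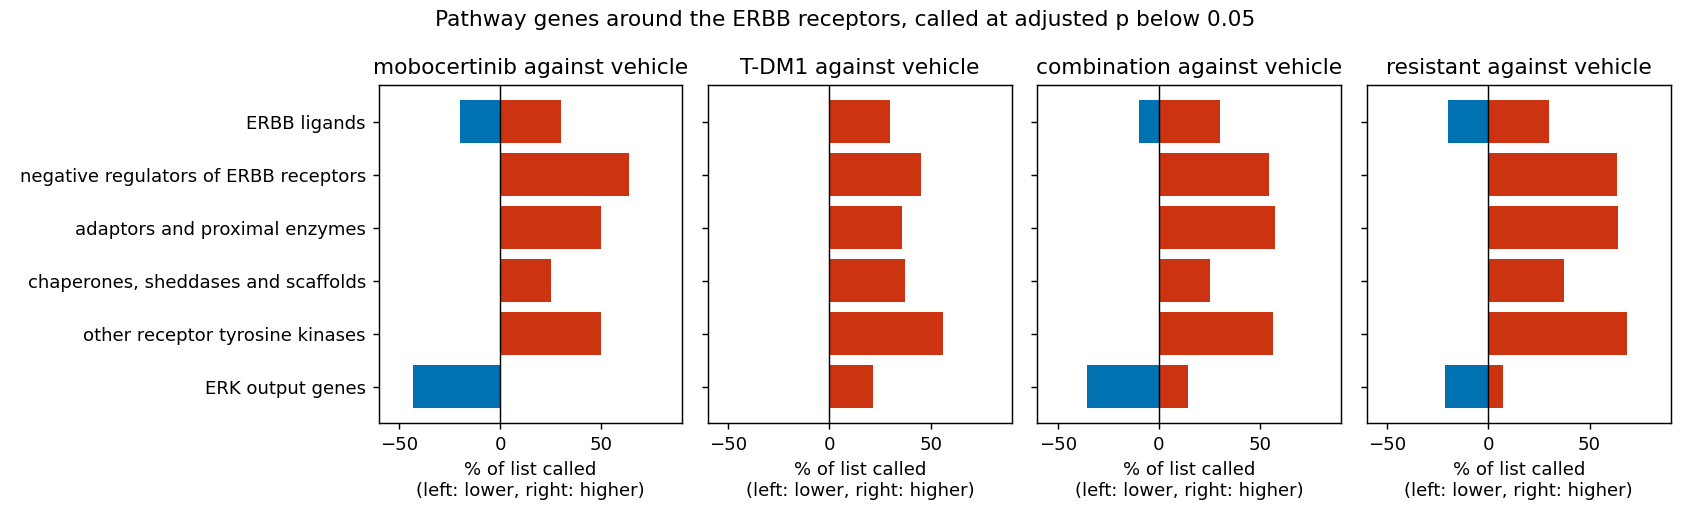
Share of each pathway list called higher (right) or lower (left) against vehicle in the 4 other groups, as percent of its tested genes, by edgeR at an adjusted p of 0.05. ERK output genes are called lower in mobocertinib (6 of 14) and higher in T-DM1 (3 of 14). Negative regulators are called in 1 direction, higher, in each group (5 to 7 of 11). Among all genes, 16.7% to 22% are called higher and 14.9% to 19% lower.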

How the data were processed

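Bulk RNA was measured in 14 libraries of 5 groups. The deposited count table holds the authors' gene counts, whole numbers without normalization, for 55291 genes. The deposited TPM table holds the authors' TPM values, scaled to transcript length and library, for 47606 genes. STAR, RSEM and the mm10 build are named per the submitters' processing notes; the annotation, strandedness of counting and tool versions were not given in the sources used here. Counts were tested with edgeR 4.0.16 in R 4.3.3 (TMM factors, filterByExpr by group, robust quasi-likelihood fit over all 14 libraries, 9 residual degrees of freedom, Benjamini-Hochberg over 17933 genes, threshold 0.05); every adjusted p is from it unless another tool is named. CPM values use TMM library sizes. Alternatives were upper-quartile and RLE factors, other filters, limma-voom and limma on log2 TPM (limma 3.58.1; pseudocounts 1 and 0.1), DESeq2 1.42.0, length and GC offsets, an epithelial marker term, the compared groups alone, and each library left out. Correlations used 100000 permutations. The edgeR fit was tested on simulated data for mobocertinib against vehicle and the combination against mobocertinib. It recovered 2 and 3 of 50 genes changed 2-fold, and 24 and 25 of 50 changed 4-fold. At 8-fold 31 and 29 of 50 were recovered, and at 16-fold 27 and 32 of 50. The changed genes were drawn from all genes tested, so recovery at the receptors' own levels was not tested. False calls were 3 and 6. Most 2-fold changes were thus missed, as were many of the larger ones. Named were the receptors, up to 3 called genes of each pathway list by smallest p in a comparison (or the 1 with the smallest p where none was called), and the 5 genes most correlated with each receptor; the Erbb2 neighbors were taken by distance, and values of a named gene in other groups are given beside it. Exons and sequences are from GENCODE M21. Within-group library pairs differed beyond sampling noise, so none was a repeat of another, and each library counted once. Whether libraries of a group shared a mouse cannot be told from this. Replicate numbers follow accession order. The receptors and lists were chosen with earlier results of these data known.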

Additional observations from a re-analysis of the deposited data

Results flagged for a closer look

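Egfr in the combination lay below the summed changes of mobocertinib and T-DM1 by −3.24 ± 0.86 on the log2 scale (edgeR adjusted p = 0.03). It was singled out because the contrast asks whether the combination's change differs from the sum of the single-drug changes. Against vehicle Egfr was 3.19 in mobocertinib, 4.12 in T-DM1 and 4.07 in the combination. No pair of these 3 groups differed in Egfr, so the contrast is not read as an interaction of the drugs. The same 2 vehicle libraries enter both single-drug changes, with 18 and 26 counts of Egfr, and the call was lost without either of them (edgeR adjusted p = 0.0786 without vehicle 1 and 0.0848 without vehicle 2). It was also lost without mobocertinib 1 (0.0513), mobocertinib 3 (0.0544), T-DM1 1 (0.0586), T-DM1 3 (0.0673) or combination 2 (0.0724). Egfr did not pass with length and GC offsets (−2.19, edgeR adjusted p = 0.131) or with limma-voom (adjusted p = 0.179). In log2(TPM + 0.1) it was −1.76 (limma adjusted p = 0.184), where the median of all genes was −1.59.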

How the results depend on the processing

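No paired analysis was possible because the labels give no replicate numbers or pairs. In resistant nodules against vehicle, 3 receptors were called in every setting tried. The share of all genes called there ran from 20% (compared groups alone) to 67.2% (TPM pseudocount 0.1). In T-DM1 against vehicle the count of called receptors, 2 as reported, was 1 with length and GC offsets and 1 with the epithelial marker term. It was 1 to 2 with a library left out (1 without vehicle 2). It was 3 with DESeq2, no filter beyond 1 count, the compared groups alone and both TPM pseudocounts. Of all genes, 31.7% were called as reported, 24% with the offsets and 26.5% with the epithelial marker term. The share was 39.9% with DESeq2, 16.2% with no filter beyond 1 count and 22.3% with the compared groups alone. With TPM pseudocounts 1 and 0.1 it was 61.1% and 65.8%. In the contrast of the combination with both drugs the count of called receptors was 1 as reported and 0 to 1 with a library left out. It was 0 with limma-voom (10.2% of all genes called) and with length and GC offsets (5.52%). It was 2 (Egfr and Erbb3) with DESeq2 (21.4%), the epithelial term (14.2%) and the compared groups alone (19.1%). With TPM pseudocounts 1 (41.1%) and 0.1 (47.5%) it was also 2 (Erbb2 and Erbb3). Receptor pairs with a correlation past the threshold were 0 in log2 CPM and 1 in log2(TPM + 1). The sign changed only for differences that were not called. For Egfr in combination against T-DM1 the value was 0.19 with limma-voom, 0.23 and 0.32 with TPM pseudocounts 1 and 0.1, and −0.48 to 0.39 with a library left out. With a library left out, Egfr was −0.70 to 9.03e-05 in resistant against combination and −0.83 to 0.031 in resistant against T-DM1. Erbb2 in combination against mobocertinib was −0.061 with the epithelial term and −0.0043 to 0.51 with a library left out; in T-DM1 against mobocertinib it was −0.35 to 0.022 with a library left out but −0.88 with the epithelial term, which also moved it from 1.05 to 1.82 in resistant against T-DM1 (neither called), and in resistant against combination −0.0073 and −0.0090 from TPM. Erbb3 in combination against mobocertinib was 0.074 and 0.076 from TPM and −0.21 to 0.22 with a library left out. Erbb3 in resistant nodules was 0.31 against the combination with the epithelial term. With a library left out it was −0.86 to 0.24 against the combination, −0.89 to 0.20 against mobocertinib and −0.32 to 0.77 against T-DM1. For all of these changes the cause was not tested. Depth limits Erbb4 in all groups and Egfr in vehicle.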

Other observations

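Receptor levels were also set against the mean log2 CPM of 12 cell type marker lists over the 12 libraries outside vehicle, a choice made after seeing the data. None of 36 relations had an adjusted permutation p below 0.05 (smallest 0.388 for Spearman's rho and 0.551 for Pearson's r). The lowest r was that of Erbb3 with fibroblast markers (r = −0.63, permutation p = 0.0286; rho −0.48, permutation p = 0.115), and it was −0.30 without resistant 1 and T-DM1 1. The lowest rho was that of Erbb3 with club cell markers (rho −0.72, permutation p = 0.0108, adjusted 0.388; r = −0.52, permutation p = 0.0883), and r was −0.77 without T-DM1 2 and combination 3.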
